A study of Mus musculus with 10 samples.

Results

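The genes described here encode the enzymes that dispose of peroxides, superoxide and reactive electrophiles: the glutathione S-transferases (Gst, classes alpha, kappa, mu, omega, pi, theta and zeta), the glutathione peroxidases (Gpx), the peroxiredoxins (Prdx), the thioredoxin reductases (Txnrd), the thioredoxin domain proteins (Txndc) and the superoxide dismutases (Sod). They were taken by symbol alone, as every listed gene whose name begins with one of these stems and a number. There were 52 such genes, of which 22 were Gst, 8 Gpx, 7 Prdx, 3 Txnrd, 9 Txndc and 3 Sod. The day 7 table held 47 of them among 17816 genes, and the adult table held all 52 among 20007 genes.

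The data came from polyadenylated RNA of mice in which Rnf20, an E3 ligase that mono-ubiquitinates histone H2B, was deleted in the Sertoli cells, the somatic nurse cells of the seminiferous tubule. The knockout (Amh-Rnf20-/-) carried Rnf20 Flox/Flox with an Amh-Cre transgene, whose promoter is active in Sertoli cells, so that the deletion was aimed at these cells and not at the others of the testis. The labels give the controls as WT, whereas the study describes Rnf20 Flox/Flox animals as its controls. At 7 days after birth the samples were Sertoli cells, isolated by enzyme digestion and cultured before RNA was extracted, with 2 control and 2 knockout samples. Their age rests on the sample titles and the study's methods, since the growth entry of the labels reads adult for every sample. In the adult, for which the labels give no age, whole testis was used, with 3 control and 3 knockout samples. The samples with the knockout label are called KO samples.

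These families share a division of labour that is well known in the testis. Superoxide dismutases turn superoxide into hydrogen peroxide, which glutathione peroxidases and peroxiredoxins then reduce with electrons from glutathione or thioredoxin, while glutathione S-transferases attach glutathione to electrophiles. Germ cells have their own versions of several members. Gpx4 protein is a structural part of the sperm midpiece, Txnrd3 is a thioredoxin and glutathione reductase of spermatids, and Txndc2 and Txndc8 are thioredoxins of the sperm tail and acrosome. Sertoli and Leydig cells are known for high levels of mu and alpha class transferases.

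Library depth was 17477282 to 17705359 estimated counts at day 7 and 15431935 to 16574160 in the adult. Replicate numbers only name the samples, and nothing in the labels ties a number to an animal, so the p-values measure the spread between these samples. The KO samples were less alike than the controls, and in the adult KO replicate 1 stood apart. The chi-square per degree of freedom between replicates was 34.3 for the day 7 KO pair against 2.65 for the controls, and in the adult it was 88.1 and 118 for pairs with KO replicate 1 against 21.4 for KO replicates 2 and 3. Rnf20 itself was 16.6 and 16.0 FPKM in the day 7 controls and 10.3 and 12.6 FPKM in the KO samples (log2 fold change -0.49 ± 0.12 SE, adjusted p = 0.222, edgeR). In the adult it was 4.89, 3.32 and 4.09 FPKM in the controls and 9.16, 5.76 and 9.85 FPKM in the samples labelled knockout (log2 fold change 0.12 ± 0.27 SE, adjusted p = 0.688, edgeR), so that whole testis gave no check of that label, and with median-ratio scaling the value was -0.075, with total-count scaling 0.97 (adjusted p = 0.0168).

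The cell types in the samples moved with the labels. In the adult KO samples the summed FPKM of 12 spermatid markers was 14.0 to 139, against 127657 to 196575 in the controls, and all 12 were lower (adjusted p under 0.05). All 9 Leydig cell markers (summed FPKM 65685 to 90425 against 4073 to 5663), all 8 macrophage markers (874 to 1171 against 45.5 to 51.6) and all 6 stromal fibroblast markers (1303 to 3390 against 40.5 to 53.4) were higher. So were 5 of 6 endothelial markers (29.8 to 48.0 against 2.8 to 3.42) and 4 of 5 red blood cell markers (673 to 3176, highest in KO replicate 1, against 89 to 128). Of 12 spermatocyte markers 8 were lower (3.21 to 476 against 5228 to 5457). Of 7 peritubular myoid markers 5 were higher and 1 lower, and of 10 spermatogonium markers tested 2 were higher and 4 lower. Of 15 Sertoli markers 5 were higher and 1 lower, with summed levels of 5173, 9016 and 9429 FPKM in KO replicates 1, 2 and 3 and 1543 to 2400 FPKM in the controls. The 9 of 12 epididymal genes in the table summed to 25.2 to 32.3 FPKM in the controls and 3.74 to 38.1 FPKM in the KO samples. Among them Lcn8, Lcn9, Crisp1 and Adam7 were at or near 0 in every adult sample, from 0 to 0.26 FPKM. Of the 4 epididymal genes tested, Cst11 rose (0 to 0.86 FPKM in the controls, 1.99, 29.5 and 34.0 FPKM in the KO samples), and Aqp9, Rnase10 and Spink8 fell. In the day 7 control cultures the Sertoli markers Sox9 (39.4 to 41.8 FPKM) and Cldn11 (214 to 229 FPKM) were present. Other Sertoli markers were low there, namely Amh (5.56 to 6.41 FPKM), Fshr (1.59 to 2.16 FPKM), Cst9 (1.68 to 2.07 FPKM) and Rhox5 (0.22 to 0.32 FPKM). Acta2 (1058 to 1097 FPKM) and Col1a1 (1011 to 1046 FPKM), markers of peritubular myoid and stromal cells, were high. The summed Sertoli markers were 2009 and 1830 FPKM in the controls and 961 and 1492 FPKM in KO replicates 1 and 2, whereas the summed peritubular myoid markers were 2248 and 2118 FPKM in the controls and 3822 and 3901 FPKM in the KO samples. On scaled counts both KO samples were below both controls in 11 of 15 Sertoli, 9 of 11 spermatogonium and all 5 spermatocyte markers tested. They were above both controls in all 7 peritubular, all 6 stromal and 3 of 6 Leydig markers. Of all genes 26.1% lay below and 24.8% above. The spermatogonium markers summed to 142 to 146 FPKM in the KO samples against 205 to 212 FPKM. Most of that sum was Uchl1 (107 to 120 FPKM in the KO samples, 149 to 165 FPKM in the controls). Since each sample is a bulk extract, fewer cells of a type and less RNA per cell cannot be told apart, and the part of these shifts in the results was not tested.

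The promoters of 3 mu class genes are shown because these genes of a single cluster were among the most abundant members and changed in opposite directions in the adult. In order along the chromosome the 7 mu genes are Gstm5 (chr3:107895854-107898685, plus strand), Gstm7, Gstm6, Gstm3, Gstm2 (chr3:107981702-107986420, minus strand), Gstm1 (chr3:108012250-108017973, minus strand) and Gstm4 (ending at 108045179), all protein-coding (RefSeq, GRCm38.p6). Each sequence runs 5′ to 3′ on the gene's strand and covers the 250 bases before a transcript start, with capitals marking the core of an antioxidant response element (TGACNNNGC). This core, a TATA box (TATAAA) and a GC box (GGGCGG) were searched on both strands. They lie at chr3:107895604-107895853 for Gstm5, chr3:107986421-107986670 for Gstm2 and chr3:108017974-108018223 for Gstm1, before the outer of its 2 listed starts.
Gstm5: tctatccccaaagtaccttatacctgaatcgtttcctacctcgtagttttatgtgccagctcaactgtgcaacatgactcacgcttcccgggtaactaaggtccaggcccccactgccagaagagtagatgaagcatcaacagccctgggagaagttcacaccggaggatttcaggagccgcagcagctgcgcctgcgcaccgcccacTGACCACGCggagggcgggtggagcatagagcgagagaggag
Gstm2: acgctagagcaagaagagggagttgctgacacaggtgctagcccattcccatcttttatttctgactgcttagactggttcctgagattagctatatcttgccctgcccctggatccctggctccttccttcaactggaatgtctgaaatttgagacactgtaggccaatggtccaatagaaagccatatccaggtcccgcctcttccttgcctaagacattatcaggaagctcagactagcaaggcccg
Gstm1: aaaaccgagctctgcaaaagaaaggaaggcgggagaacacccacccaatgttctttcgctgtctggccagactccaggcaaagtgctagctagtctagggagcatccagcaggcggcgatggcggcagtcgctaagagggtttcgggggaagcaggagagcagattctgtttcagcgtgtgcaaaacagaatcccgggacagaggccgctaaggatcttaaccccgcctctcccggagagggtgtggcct

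The antioxidant response element core, the letters bound by the NRF2 transcription factor, was found 42 bases before the Gstm5 start and was not among these letters of Gstm2 or Gstm1, while Gstm1 had a TATA box 30 bases before its second, more downstream start. Promoter sequence was listed for 47 members, in 64 promoters. The core occurred in 9 of these 64 (14.1%), against 10.2% of all 32851 promoters of the same length. A TATA box occurred in 6 (9.38%, against 12.4% of all), and a GC box, whose letters did not overlap the capitals in the printed stretches, in 33 (51.6%, against 32.7% of all). Among the members that rose in the adult KO samples the core was in 7 of 29 genes (24.1%), and among those that fell in 2 of 11 (18.2%), beside 11.5% of all 27025 genes. A match describes the letters only and is not evidence of binding.

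In the adult testis the question was how the antioxidant genes stood in the samples labelled knockout. Most genes of the table changed, the members among them. Of 49 members tested, 31 rose and 12 fell in the KO samples (adjusted p under 0.05, edgeR), where of all 15919 genes tested 40.9% rose and 40.6% fell, shares beside which the counts of each family below are also to be read. Over the members the log2 fold change had a median of 1.75, and over all genes of 0.01. The 6 members that did not pass were Gstt2, Gstt3, Txndc12, Txndc16, Prdx5 and Prdx6. Gpx2, Gpx5 (the epididymal peroxidase) and Gsta1 were too low to test, at no more than 0.58 FPKM in any sample. Together the members made up 1.38% to 1.41% of all FPKM in the controls and 3.53% to 4.84% in the KO samples.

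**Figure D1:**
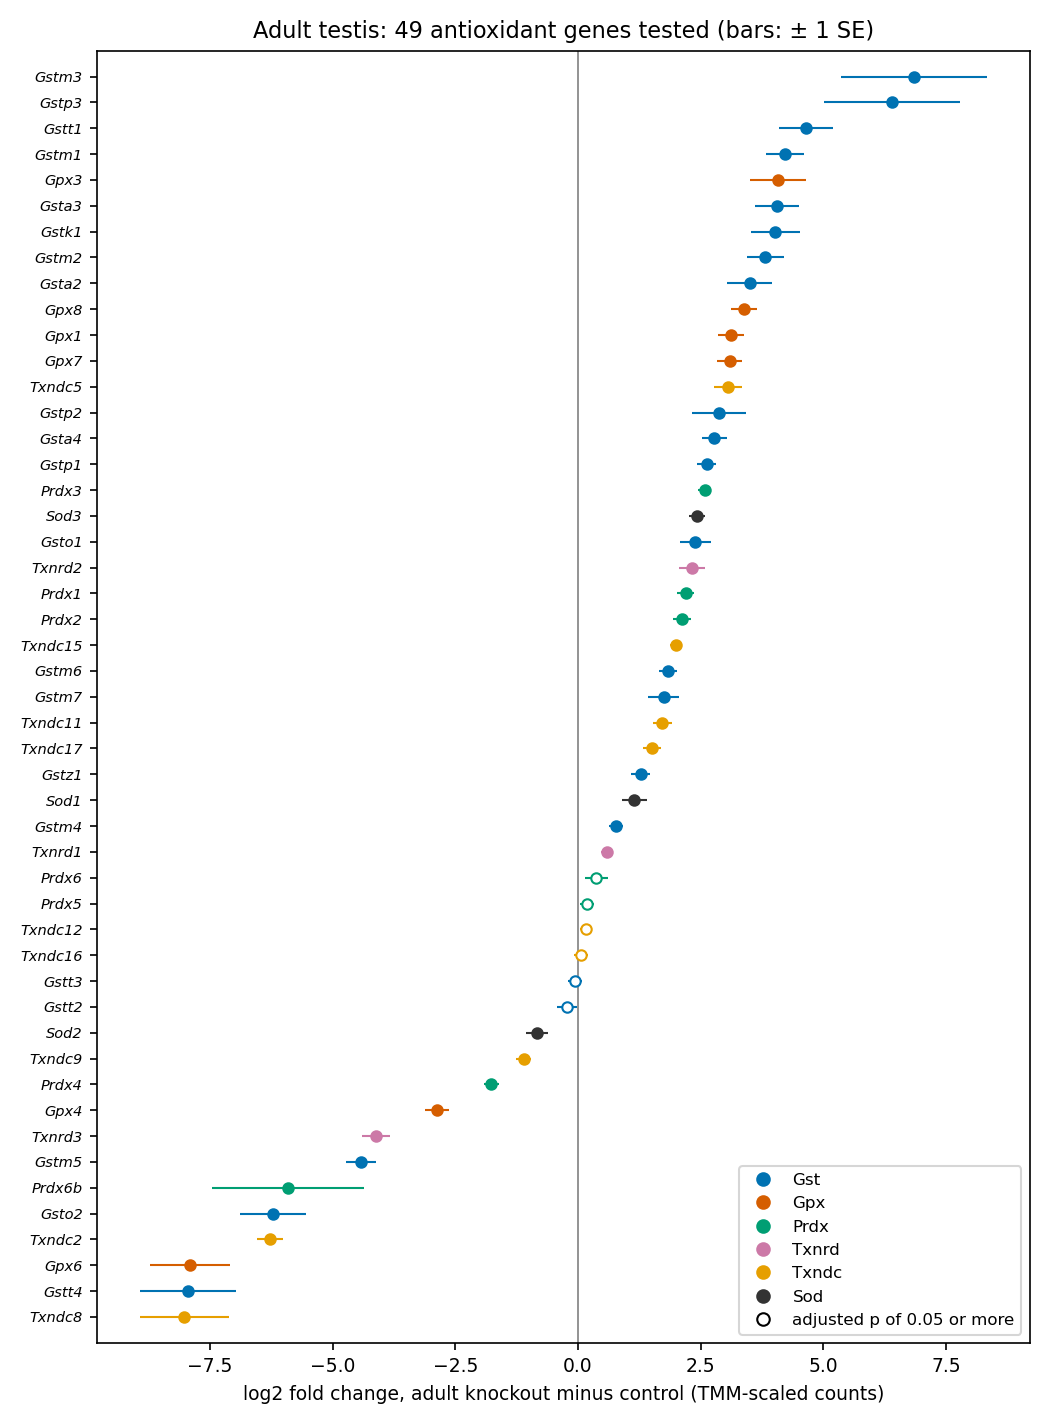
Log2 fold change of the 49 antioxidant genes tested in adult testis (KO minus control, TMM-scaled counts, 3 samples a group), with bars of 1 SE, coloured by family. Filled points passed the test, with 31 to the right of 0 and 12 to the left, and the 6 open points did not. Gstm3 and Gstp3 rest on 2 control counts each.

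Among the glutathione S-transferases, 16 of 21 tested rose and 3 fell. Gstm1, a mu class transferase, was 305, 342 and 389 FPKM in the controls and 14976, 9979 and 9728 FPKM in the KO samples. Gstm2, its neighbour in the cluster, was 311, 343 and 355 FPKM in the controls and 11602, 7279 and 6651 FPKM in the KO samples. Gstm5 was 4723, 5141 and 4256 FPKM in the controls and 333, 488 and 384 FPKM in the KO samples. The groups were far apart for all 3 genes, and KO replicate 1 had the highest Gstm1 and Gstm2 and the lowest Gstm5. The log2 fold changes were 4.22 ± 0.39 SE for Gstm1 (adjusted p = 0.00015), 3.82 ± 0.38 SE for Gstm2 (adjusted p = 0.000193) and -4.42 ± 0.31 SE for Gstm5 (adjusted p = 6.01e-05). Gstm5 thereby went from 71.8% of the summed Gst FPKM of the controls to 1.61%, while Gstm1 went from 5.27% to 46.3% and Gstm2 from 5.13% to 34.1%. The summed Gst level was 6131 to 7040 FPKM in the controls and 20461 to 32046 FPKM in the KO samples.

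The other mu genes rose by less, or from almost nothing. Gstm6 and Gstm7 rose by 1.83 ± 0.18 and 1.75 ± 0.32 on the log2 scale, and Gstm4 by 0.77 ± 0.14. Gstm3 was 0, 0.06 and 0.06 FPKM in the controls and 0.87, 11.6 and 19.1 FPKM in the KO samples. The pi class gene Gstp3 was 0.13, 0 and 0.13 FPKM in the controls and 1.66, 17.9 and 26.5 FPKM in the KO samples. Both were lowest of the KO samples in replicate 1. Because the 3 controls together held 2 counts of each, their change is better given as a ratio of scaled counts, 134 for Gstm3 (95% exact interval 36.9 to 1109) and 97.7 for Gstp3 (26.8 to 810), which covers counting error only.

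**Figure D2:**
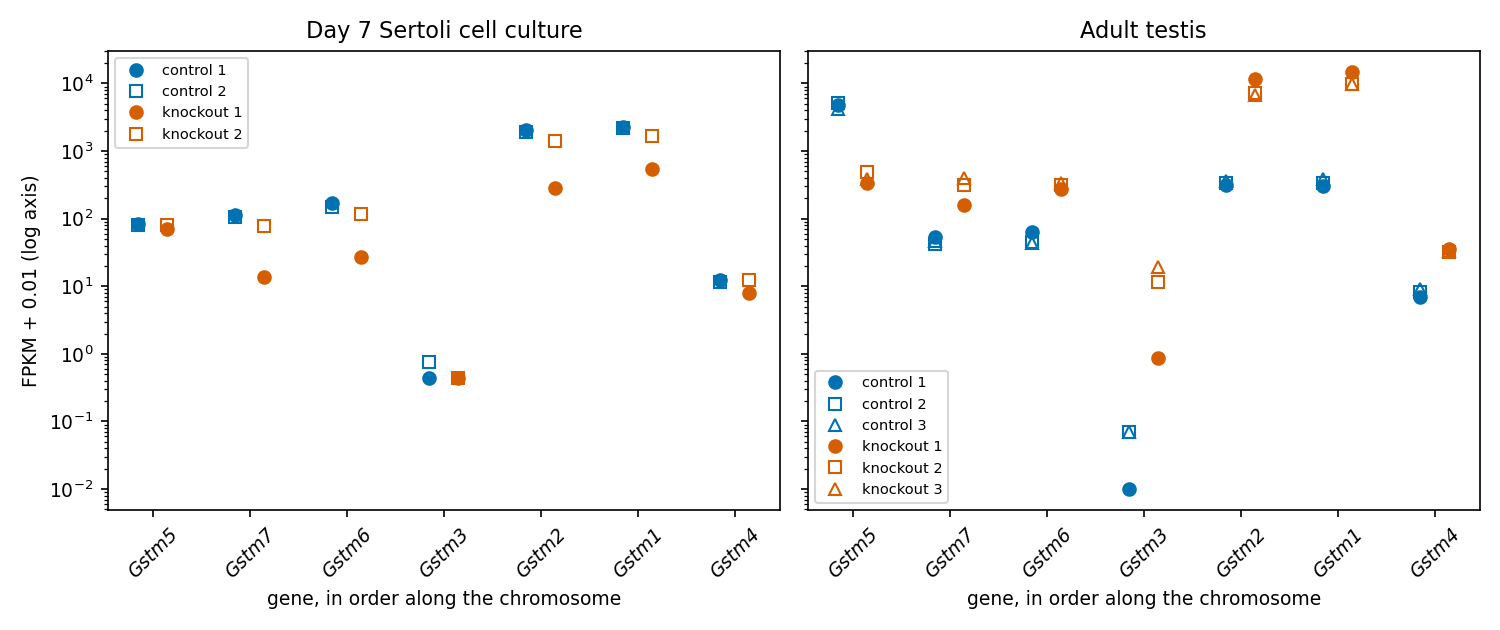
FPKM of the 7 mu class genes in every sample, on a log axis after adding 0.01, in their order along the chromosome, at day 7 (left) and in the adult testis (right). In the adult panel Gstm5 is lower and the other 6 genes are higher in every KO sample than in any control. In the day 7 panel KO replicate 1 is the lowest for Gstm7, Gstm6, Gstm2 and Gstm1 and, by less, for Gstm5 and Gstm4.

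Transferases of other classes rose with Gstm1 and Gstm2. Gstt1, of the theta class, was 2.49, 5.44 and 4.93 FPKM in the controls and 312, 154 and 117 FPKM in the KO samples (log2 fold change 4.65 ± 0.56 SE). Gsta3, an alpha class enzyme that also isomerises steroids, was 21.4, 19.2 and 24.7 FPKM in the controls and 988, 572 and 375 FPKM in the KO samples (4.06 ± 0.45). Gstk1, of mitochondria and peroxisomes, was 10.5, 15.3 and 16.4 FPKM in the controls and 659, 332 and 233 FPKM in the KO samples (4.02 ± 0.50). KO replicate 1 was the highest for each of these genes, and the groups did not overlap. Gsta2 was 19.5, 18.8 and 16.8 FPKM in the controls and 516, 436 and 172 FPKM in the KO samples (3.50 ± 0.46). Gsta4, Gstp1, Gstp2, Gsto1 and Gstz1 rose by 1.28 to 2.87 on the log2 scale.

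The transferases that fell apart from Gstm5 were nearly lost. Gstt4, of the theta class, was 505, 590 and 497 FPKM in the controls and 0.45, 5.90 and 5.52 FPKM in the KO samples (log2 fold change -7.95 ± 0.98 SE). Gsto2, of the omega class, which reduces dehydroascorbate, was 220, 227 and 240 FPKM in the controls and 1.5, 5.95 and 9.40 FPKM in the KO samples (-6.22 ± 0.68). In both genes KO replicate 1 was the lowest sample. Of the KO samples it was also lowest for the summed spermatid (14.0 FPKM, against 99.9 and 139 FPKM) and spermatocyte markers (3.21, against 329 and 476 FPKM). The same held for the spermatogonium, Sertoli, Leydig and epididymal sums. For the macrophage, stromal, endothelial, red blood cell and peritubular myoid sums it was the highest. A link of these genes to any cell type was not tested.

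The glutathione peroxidases split in the same manner, with 4 of 6 tested higher and 2 lower. Gpx4, which reduces lipid hydroperoxides, was 3430, 3737 and 3029 FPKM in the controls and 929, 1070 and 964 FPKM in the KO samples (log2 fold change -2.88 ± 0.25 SE, adjusted p = 0.000117). Gpx6 was 70.1, 122 and 111 FPKM in the controls and 0, 0.85 and 1.07 FPKM in the KO samples (-7.91 ± 0.81). Gpx4 was still the most abundant of the family in every KO sample, but its share of the summed Gpx FPKM went from 96.0% to 57.8%. Gpx1, the cytosolic peroxidase, was 34.7, 29.8 and 22.9 FPKM in the controls and 542, 465 and 366 FPKM in the KO samples (3.12 ± 0.27), and its share went from 0.82% to 26.8%. Gpx3, the secreted plasma peroxidase, was 7.44, 5.31 and 3.78 FPKM in the controls and 286, 106 and 104 FPKM in the KO samples (4.08 ± 0.57). Gpx8, of the endoplasmic reticulum, was 5.46, 3.43 and 3.61 FPKM in the controls and 87.3, 85.1 and 62.2 FPKM in the KO samples (3.38 ± 0.26). Gpx7, also of the endoplasmic reticulum, rose by 3.09 ± 0.25. Because Gpx4 was so abundant in the controls, the summed family level was lower in the KO samples, at 1520 to 1860 FPKM against 3172 to 3900 FPKM.

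Of the 7 peroxiredoxins 3 rose and 2 fell, near the shares of all genes (40.9% and 40.6%). Prdx1 and Prdx2, of the cytosol, and Prdx3, of mitochondria, rose by 2.19 ± 0.16, 2.11 ± 0.18 and 2.58 ± 0.13 on the log2 scale. Prdx6b, a copy of Prdx6 on another chromosome, was 262, 217 and 210 FPKM in the controls and 0.05, 9.57 and 11.7 FPKM in the KO samples (log2 fold change -5.91 ± 1.55 SE, adjusted p = 0.0119). Prdx6 itself, the peroxiredoxin with a single catalytic cysteine, was 85.7, 83.6 and 82.6 FPKM in the controls and 126, 212 and 236 FPKM in the KO samples (0.37 ± 0.23, adjusted p = 0.179), and without KO replicate 1 its log2 fold change was 0.72 (adjusted p = 0.00014, edgeR). Prdx6b was the most abundant family member in the controls, at 33.0% of the summed FPKM, and 0.40% in the KO samples, where Prdx1 held 37.0%.

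Prdx4, the secretory pathway member, is a case where the deposited units part ways. The controls had 156, 124 and 125 FPKM and the KO samples 131, 131 and 129 FPKM, so that the groups overlapped. On TMM-scaled counts it fell by 1.76 ± 0.15 (adjusted p = 0.000103), by 0.91 with total-count scaling, and the call was lost with limma on FPKM. The transcript length implied by its counts and FPKM was 1319 ± 15.9 bases in the controls and 728 ± 4.2 bases in the KO samples (mean ± SD, n = 3 each), a shift larger than that of 99.1% of 9160 genes with enough counts. The same measure went from 1346 ± 48.7 to 1002 ± 93.0 bases for Gstm4 and from 643 ± 4.5 to 545 ± 8.5 bases for Gpx4. Prdx4 and Gpx4 are both known to have transcripts with alternative first exons in the testis.

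Of the thioredoxin reductases, Txnrd3 was 144, 145 and 174 FPKM in the controls and 10.5, 18.8 and 19.5 FPKM in the KO samples (log2 fold change -4.11 ± 0.28 SE, adjusted p = 5.78e-05). The mitochondrial Txnrd2 rose by 2.33 ± 0.27 and the cytosolic Txnrd1 by 0.59 ± 0.11. Txnrd3 held 95.4% of the summed Txnrd FPKM of the controls and 32.8% of that of the KO samples, where Txnrd2 held 38.6%. The summed level was 152 to 181 FPKM in the controls and 48.6 to 50.8 FPKM in the KO samples.

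Of the 9 thioredoxin domain genes 4 rose and 3 fell, again near the shares of all genes. Txndc2 was 783, 718 and 652 FPKM in the controls and 14.3, 18.8 and 15.9 FPKM in the KO samples (log2 fold change -6.28 ± 0.26 SE, adjusted p = 2.73e-05, the lowest of any member). Txndc8 was 459, 537 and 443 FPKM in the controls and 0.17, 4.18 and 5.93 FPKM in the KO samples (-8.02 ± 0.91). These thioredoxins of sperm held 51.8% and 34.6% of the summed Txndc FPKM in the controls, and 3.25% and 0.68% in the KO samples. Txndc5, a disulphide isomerase of the endoplasmic reticulum, rose by 3.06 ± 0.29 and held 27.8% in the KO samples. Txndc11, Txndc15 and Txndc17 rose by 1.51 to 1.99. Txndc9 fell by 1.11 ± 0.15 on TMM-scaled counts, with overlapping FPKM (73.2 to 110.6 in the controls and 73.3 to 77.0 in the KO samples).

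Among the superoxide dismutases, the cytosolic Sod1 was 498, 555 and 527 FPKM in the controls and 2529, 2233 and 1580 FPKM in the KO samples (log2 fold change 1.15 ± 0.26 SE, adjusted p = 0.00588). The extracellular Sod3 rose by 2.43 ± 0.17. Sod1 held 90.2% of the summed Sod FPKM of the controls and 92.8% of that of the KO samples, so this family alone of the 6 kept its leading member and that member's share to within 3 percentage points. Sod2, of mitochondria, fell by 0.83 ± 0.22 on TMM-scaled counts (adjusted p = 0.0128), but the controls had 40.2, 53.8 and 42.2 FPKM and the KO samples an overlapping 47.8, 52.3 and 38.5 FPKM, and with total-count scaling the change was 0.03. Without KO replicate 3 it was -0.60 (adjusted p = 0.0695, edgeR).

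**Figure D3:**
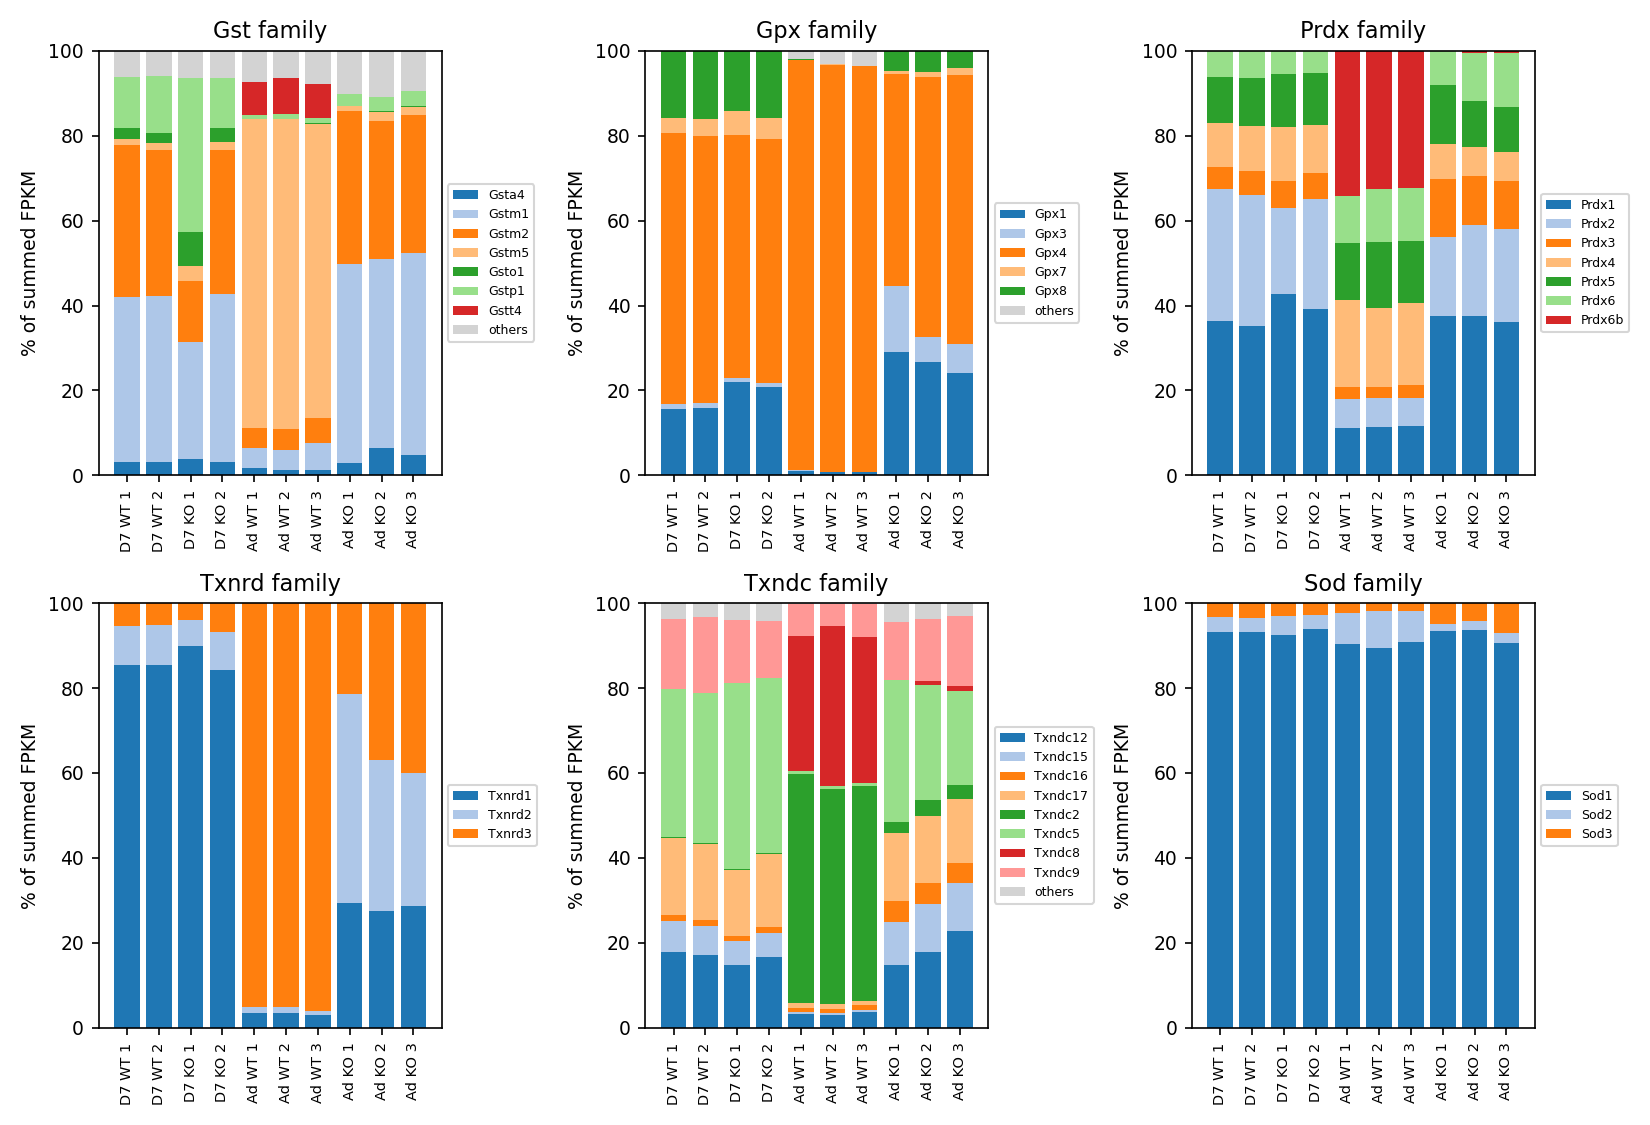
Share of the summed FPKM of each family held by its members in all 10 samples (D7, day 7 cultures; Ad, adult testis; WT, control; KO, labelled knockout). The adult controls are dominated by Gstm5, Gpx4, Txnrd3, and Txndc2 with Txndc8, and in the adult KO samples Gstm1 and Gstm2 make up most of the Gst bar, as in 3 of the 4 day 7 samples (in day 7 KO replicate 1 Gstp1 is the largest part), while Sod1 fills the Sod bar throughout.

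The scaling moved every fitted value. The normalisation factors were 0.711 to 0.761 in the adult controls and 1.27 to 1.42 in the KO samples, and total-count scaling moved the median of all genes to 0.87. With that scaling 37 members were called higher and 10 lower, beside 54.1% and 30% of all genes, with Txndc9 and Sod2 no longer called and the 6 uncalled members called higher. The rises of Txnrd1, Sod1, Gstm4, Gstz1, Txndc17 and Gstm7 were then 1.44, 1.996, 1.63, 2.13, 2.36 and 2.62 on the log2 scale. Over all genes 50.2% of calls were higher with TMM and 64.3% with total-count scaling. Without KO replicate 1, 33 members rose and 12 fell, the additional 2 being Prdx6 and Txndc12, beside 45.3% and 41.1% of all genes.

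Genes that make, recycle or use the same cofactors were followed in 6 lists, of which 79 genes were tested in the adult, with 49 higher and 24 lower. With total-count scaling 15 were lower, and with limma 14 or 15. In those fits the share of all genes lower was also smaller, at 30% to 31.2% against 40.6% with TMM. The counts below are to be read beside the 40.9% and 40.6% of all genes that rose and fell. For glutathione synthesis, export and recycling, 9 of 17 rose and 6 fell. Ggt5, which cleaves extracellular glutathione, and Slc3a2, a subunit of the cystine transporter, both rose, Ggt5 from 0.28 FPKM in each control to 22.1, 11.04 and 11.6 FPKM in the KO samples and Slc3a2 by 2.93 ± 0.28 on the log2 scale. Ggt7 and Hagh, a glyoxalase, fell by 4.10 ± 0.18 and 3.16 ± 0.19. The biosynthetic genes Gclm and Gss fell by 0.74 ± 0.12 and 0.98 ± 0.25, although the FPKM ranges of both groups overlapped and with total-count scaling the values were 0.12 and -0.13. Gclc did not pass (0.53 ± 0.22, adjusted p = 0.058, or 1.38 and adjusted p = 0.000889 with total-count scaling, 0.45 and 0.02 without KO replicate 1, and 0.69 and 0.031 without KO replicate 3). Of the microsomal glutathione transferases 5 of 6 rose, led by Ptges (3.93 ± 0.13) and Alox5ap (3.54 ± 0.26), and Mgst2 fell by 1.46 ± 0.41 (adjusted p = 0.0157, edgeR). The call of Mgst2 was lost with a replicate block (adjusted p = 0.0682), and without control replicates 2 or 3 or KO replicate 2 (from 0.0558 to 0.0584). It was also lost with total-count scaling, at -0.61 (adjusted p = 0.193, edgeR). With limma on log2(FPKM + 0.1) and log2(FPKM + 1) the values were -0.60 and -0.53 (adjusted p = 0.155 and 0.135).

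Of the thioredoxin and glutaredoxin partners 10 of 20 rose and 8 fell. Glrx, a glutaredoxin, and Txnip, an inhibitor of thioredoxin, rose by 3.93 ± 0.26 and 3.51 ± 0.40, whereas Nme8, a sperm tail thioredoxin, and Txnl4b fell by 6.53 ± 1.37 and 3.44 ± 0.15. In the list of the NRF2 axis, catalase and NADPH supply 12 of 17 rose and 3 fell. Nqo1, a classical NRF2 target, and Idh2 rose by 4.25 ± 0.32 and 4.15 ± 0.32, and G6pd2, the testis copy of glucose-6-phosphate dehydrogenase, and Hmox2 fell by 7.28 ± 0.66 and 4.33 ± 0.21. Of the selenoprotein synthesis genes 5 of 11 rose and 6 fell, with Selenop (4.39 ± 0.31) and Sephs1 (1.78 ± 0.16) the largest rises and Sephs2 (-2.75 ± 0.19) and Scly (-2.68 ± 0.30) the largest falls. In the list of superoxide sources and the copper chaperone Ccs all 8 genes tested rose, led by Cybb, the catalytic subunit of the phagocyte oxidase (4.94 ± 0.45), and Xdh (4.47 ± 0.22). These lists moved beside the markers of several cell types. All 8 macrophage, all 9 Leydig and all 6 stromal markers were higher, and all 12 spermatid markers were lower. The part of any cell type in the lists was not tested.

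The day 7 cultures put the same comparison to cells labelled Sertoli, in which peritubular and stromal markers were also high. No member passed the test. Of 45 tested, 0 had an adjusted p under 0.05 with edgeR, and neither did any of the 12880 genes tested (0%), whereas DESeq2 called 4 members higher (Gpx1, Gpx7, Gstt1 and Txndc5) and 0 lower, beside 3.01% and 1.49% of all genes. At an unadjusted p under 0.05, 5 members were higher (Gpx1, Gpx7, Gstt1, Gstk1 and Txndc5), beside 8.52% of all genes, and 2 were lower (Gsta4 and Prdx6), beside 6.99% of all genes. On scaled counts both KO samples lay above both controls for 12 members, as for 24.8% of all genes, and below them for 15 members, as for 26.1% of all genes. The median log2 fold change was -0.03 over the members. Gpx2 and Gstm3 were too low to test, and Gpx5, Gpx6, Gstt4, Prdx6b and Txndc8 were not listed in this table.

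Gstm1 and Gstm2 were the most abundant members in the control cultures and in KO replicate 2, and Gstp1 (720 FPKM) in KO replicate 1. Gstm1 was 2265 and 2166 FPKM in the controls and 549 and 1664 FPKM in KO replicates 1 and 2. Gstm2 was 2082 and 1924 FPKM in the controls and 286 and 1419 FPKM in the KO samples. Gstm7 was 112 and 107 FPKM in the controls and 13.5 and 77.0 FPKM in the KO samples. Every KO value was under both controls, and most of the distance came from KO replicate 1. Gstm6 was 170 and 151 FPKM in the controls and 27.3 and 117 FPKM in the KO samples. The log2 fold changes were -0.97 ± 0.52 SE for Gstm1 (adjusted p = 0.443), -1.20 ± 0.74 for Gstm2 (adjusted p = 0.499), -1.25 ± 0.78 for Gstm7 (adjusted p = 0.502) and -1.13 ± 0.66 for Gstm6 (adjusted p = 0.477). Without KO replicate 1 they were -0.38, -0.47, -0.49 and -0.44, and without KO replicate 2 they were -1.96, -2.76, -2.97 and -2.49. The summed Gst level was 5820 and 5559 FPKM in the controls and 1994 and 4199 FPKM in the KO samples. Of the 15 Sertoli markers 13 were lowest of the 4 samples in KO replicate 1. The differences ran from small, as for Inhbb (37.7 and 38.0 FPKM in the controls, 33.7 and 42.0 FPKM in the KO samples), to large, as for Cldn11 (229 and 214 FPKM, then 14.0 and 150 FPKM). Amh was lowest in KO replicate 2, and Rhox5 was higher in both KO samples than in the controls, at under 1 FPKM throughout. The share of all genes lowest in KO replicate 1 was not counted, and a link between these markers and the mu genes was not tested.

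Gstm5 and Gstm4, in the same cluster, differed less, and on scaled counts their groups overlapped. Gstm5 was 83.9 and 81.6 FPKM in the controls and 71.2 and 80.9 FPKM in the KO samples (log2 fold change -0.08 ± 0.10 SE). Gstm4 was 12.4 and 11.6 FPKM in the controls and 7.90 and 12.3 FPKM in the KO samples. Gsta4, an alpha class enzyme that clears lipid aldehydes, was 181 and 175 FPKM in the controls and 76.3 and 132 FPKM in the KO samples (-0.74 ± 0.26, adjusted p = 0.306), or -0.41 without KO replicate 1 and -1.17 without KO replicate 2. Gsta1 was 1.89 and 2.47 FPKM in the controls and 1.22 and 0.72 FPKM in the KO samples, and here KO replicate 2 was the lower. Gstt2 was 7.52 and 6.59 FPKM in the controls and 5.81 and 4.24 FPKM in the KO samples.

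**Figure D4:**
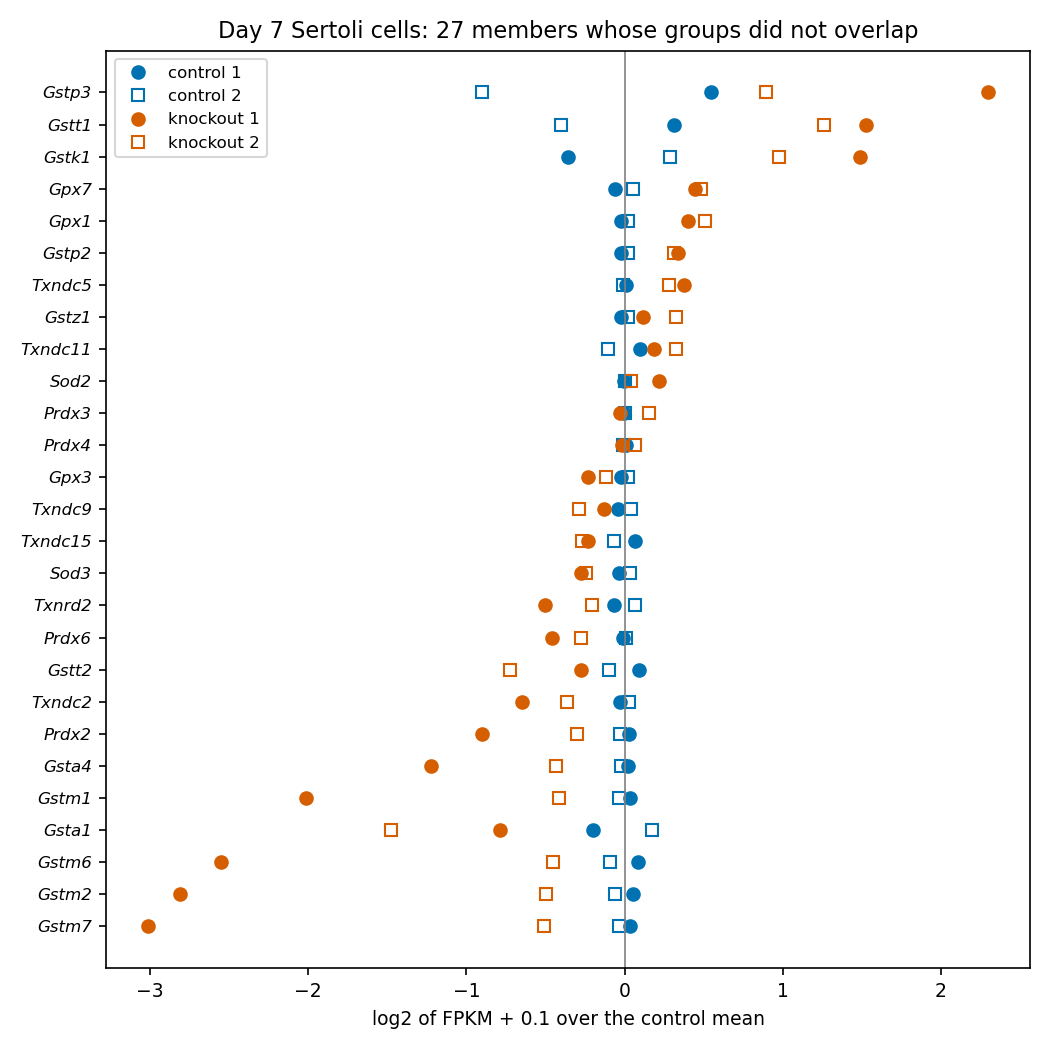
FPKM of each day 7 sample relative to the control mean (log2, after adding 0.1) for the 27 members whose groups did not overlap on scaled counts, 12 higher and 15 lower. KO replicate 1 (filled orange) is far below the other samples for Gstm7, Gstm2, Gstm6 and Gstm1, while Gpx1, Gpx7 and Txndc5 are above the controls by a similar amount in both KO samples, and on FPKM Prdx3 and Prdx4 overlap.

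Gpx1, Gpx7 and Txndc5 lay above the controls at day 7 by a similar amount in both KO samples. Gpx1 was 183 and 189 FPKM in the controls and 245 and 265 FPKM in the KO samples (log2 fold change 0.50 ± 0.08 SE, adjusted p = 0.141). Gpx7 was 43.6 and 47.1 FPKM in the controls and 61.9 and 63.4 FPKM in the KO samples (0.51 ± 0.09, adjusted p = 0.152). Txndc5 was 162 and 161 FPKM in the controls and 210 and 197 FPKM in the KO samples (0.37 ± 0.08, adjusted p = 0.183). For these 3 genes leaving out either KO replicate gave 0.32 to 0.54. Txndc5 was the most abundant thioredoxin domain gene in the cultures.

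The other members above the controls were low in level or differed less. Gstt1 was 3.89 and 2.33 FPKM in the controls and 9.15 and 7.59 FPKM in the KO samples (1.46 ± 0.32, adjusted p = 0.188). Gstk1 was 3.04 and 4.81 FPKM in the controls and 11.2 and 7.83 FPKM in the KO samples (1.32 ± 0.34, adjusted p = 0.222). Gstp3 was 0.91 and 0.27 FPKM in the controls and 3.29 and 1.18 FPKM in the KO samples (1.82 ± 0.77, adjusted p = 0.357). Leaving out single samples moved the Gstp3 value from 0.86 (without KO replicate 1) to 2.54 (without control replicate 1), and without KO replicate 2 it was 2.40 (adjusted p = 0.0105, edgeR). These 3 genes had at most 129 counts in any day 7 sample. Gstp2 was 3.94 and 4.08 FPKM in the controls and 5.09 and 5.01 FPKM in the KO samples. Gstz1 was 14.7 and 15.1 FPKM in the controls and 16.2 and 18.7 FPKM in the KO samples. Txndc11 was 17.6 and 15.3 FPKM in the controls and 18.7 and 20.6 FPKM in the KO samples, and Sod2 was 18.3 and 18.4 FPKM in the controls and 21.3 and 18.8 FPKM in the KO samples. The log2 fold changes of these last 3 genes were 0.17 to 0.27. Leaving out single samples gave 0.17 to 0.36 for Gstz1, 0.11 to 0.31 for Txndc11 and 0.074 to 0.26 for Sod2.

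The leading members of the other families differed little at day 7. Gpx4 was 745 and 748 FPKM in the controls and 641 and 732 FPKM in the KO samples, and Sod1 was 498 and 502 FPKM in the controls and 442 and 528 FPKM in the KO samples. Prdx1 was 491 and 457 FPKM in the controls and 465 and 506 FPKM in the KO samples. Txnrd1, the leading reductase of the cultures, was 79.9 and 84.9 FPKM in the controls and 91.1 and 71.6 FPKM in the KO samples. On scaled counts the groups of all 4 genes overlapped, although both KO samples were below the controls for Gpx4 on FPKM. Prdx2 was 418 and 402 FPKM in the controls and 220 and 333 FPKM in the KO samples (-0.53 ± 0.21, adjusted p = 0.33), or -0.27 without KO replicate 1 and -0.86 without KO replicate 2. Either omission brought the adjusted p under 0.05 for Gsta4, Prdx2, the 4 mu genes, Gpx1, Gpx7, Txndc5, Gstt1, Gstk1 and Prdx6, with the lone KO sample assumed to vary like the controls. Of all genes 9.77% were then called higher and 11.7% lower without KO replicate 1, and 21.1% and 18.9% without KO replicate 2. Prdx6 was 82.0 and 82.8 FPKM in the controls and 59.9 and 68.1 FPKM in the KO samples (-0.32 ± 0.09, adjusted p = 0.234). Txndc2, which led its family in the adult controls, was 0.67 and 0.70 FPKM in the day 7 controls and 0.40 and 0.51 FPKM in the KO samples.

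Of the 74 pathway genes tested at day 7, 0 passed with edgeR, and at an unadjusted p under 0.05 there were 10 higher and 7 lower, beside 8.52% and 6.99% of all genes. Among them Ggt5 was 0.51 and 0.41 FPKM in the controls and 1.94 and 1.99 FPKM in the KO samples (log2 fold change 2.20 ± 0.23 SE, adjusted p = 0.119), and Selenow, a selenoprotein, was 116 and 122 FPKM in the controls and 200 and 234 FPKM in the KO samples (0.90 ± 0.10, adjusted p = 0.119). DESeq2 called both genes (adjusted p = 0.000436 for Ggt5 and 9.7e-07 for Selenow), as did edgeR with one or the other KO replicate left out.

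The tables share no samples and were normalised separately, so their values are set side by side without a test between ages. Of 44 members tested in both, 12 had groups that did not overlap in either table and the same direction, 10 higher and 2 lower, beside 15.1% and 9.47% of all 12378 genes tested in both. Opposite directions were found for 12 members, 10 of them lower at day 7 and higher in the adult (11.6% of all genes) and 2 the reverse (6.67% of all genes). Gstk1, Gstt1, Gstp3, Gpx1, Gpx7 and Txndc5 were higher in both, and Gstm1, Gstm2, Gstm6, Gstm7, Gsta4 and Prdx2 were lower in the cultures and higher in the adult. Pearson's r between the log2 fold changes across the 44 genes was 0.21 and Spearman's rho 0.17, given as a description only since genes of a sample share its library and are not independent.

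**Figure D5:**
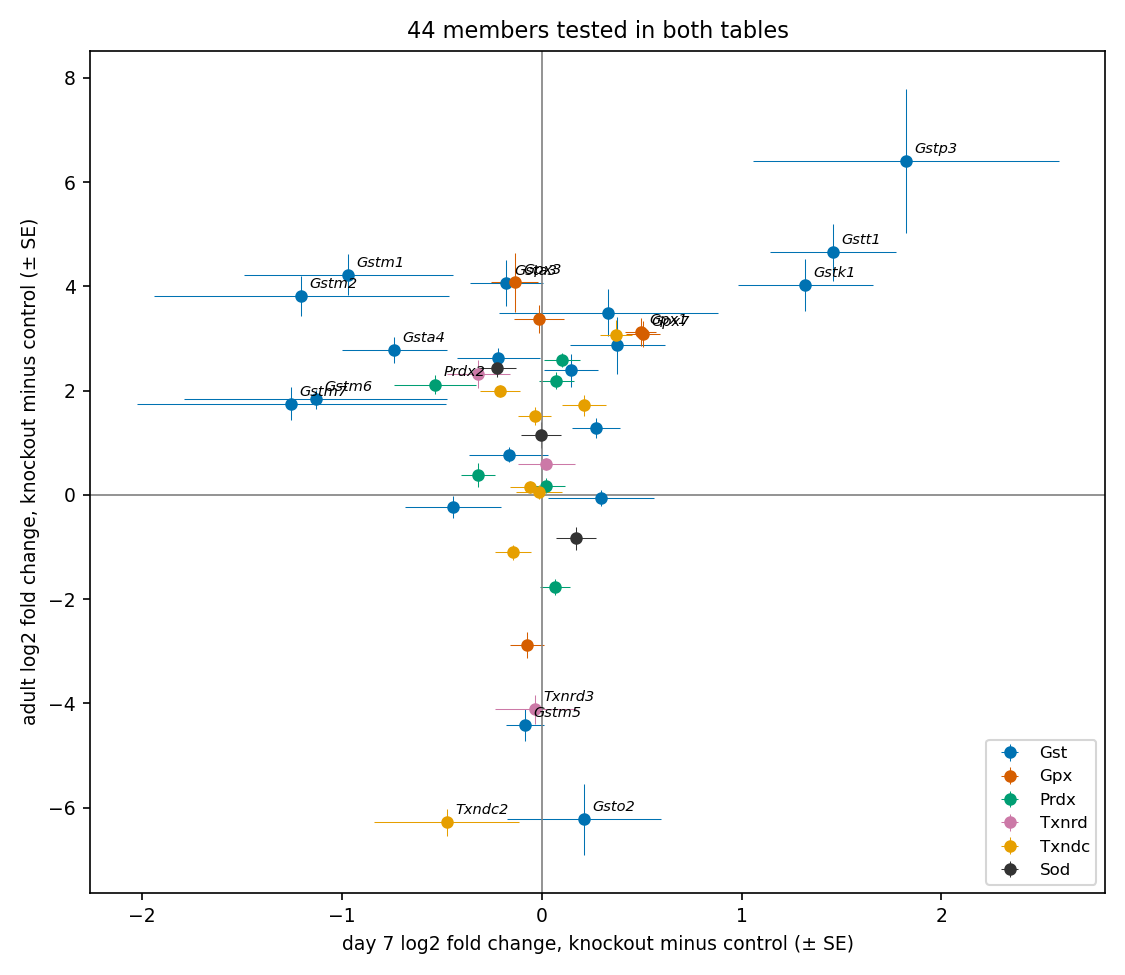
Log2 fold change (KO minus control, with bars of 1 SE) of the 44 members tested in both tables, day 7 cultures on the horizontal and adult testis on the vertical axis, coloured by family. Most points lie above 0 on the adult axis and near 0 on the day 7 axis, with Gstm1, Gstm2, Gstm6 and Gstm7 to the left and Gstp3, Gstt1 and Gstk1 to the right.

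Several members have near-identical copies among which the counting could have split reads. Of the 50-base windows of the longest protein-coding transcript, 62.3% of Gstp1, 72.6% of Gstp2, 64.2% of Gsta2 and 61.7% of Gpx4 also occurred in a transcript of another gene, mostly a copy or pseudogene. The share was 23.1% for Gstm1, 9.36% for Gstm2, 28.8% for Gstm3 and 11.5% for Gstm6, and it was 0.30% for Prdx6 and 0.25% for Prdx6b. The split of reads between copies is thus uncertain for the members with the larger shares, Gpx4 and Gsta1 (89.7%) included.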

How the data were processed

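Per the labels and the study's methods, oligo(dT)-selected RNA was sequenced and mapped with HISAT and Bowtie2 to GRCm38.p6, and the authors deposited RSEM estimated counts with FPKM and TPM per gene. The handling of strand is not given in the sources used here. The methods give 3 individuals per group, and 2 samples per day 7 group were analysed here. TPM was not used, nor were 20 empty columns of the adult table.

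Estimated counts were rounded, a gene was kept if 2 samples at day 7, or 3 in the adult (the smaller group's size), reached 0.5 FPKM, and edgeR 4.0.16 (quasi-likelihood test, TMM) was fitted to each table in R 4.3.3, with Benjamini-Hochberg adjustment over all genes tested. limma 3.58.1 on log2(FPKM + 0.1) or log2(FPKM + 1) and DESeq2 1.42.0 were alternatives. The scripts were tested on simulated data. Implied transcript length is counts per FPKM and total count, for genes with at least 50 counts in each sample. Shared windows used GENCODE vM21 transcripts.

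Members and gene lists were chosen with earlier results of these data known. Values in every sample were given for up to 10 members with the largest change each way whose groups did not overlap, and for the most abundant control member of each family, and fold changes for up to 2 rises and 2 falls of each list in the adult table. Adult Gpx1, Prdx6 and Sod2, day 7 Gstm4 and Gstm5, and Gclm, Gss, Gclc, Selenow and the day 7 value of Ggt5 were added after their values were seen.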

Additional observations from a re-analysis of the deposited data

Results flagged for a closer look

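For 12 members every KO sample moved one way from the controls in the day 7 cultures and the opposite way in the adult testis, and this difference between ages was not tested. Among all genes tested at both ages, 11.6% were lower at day 7 and higher in the adult, and 6.67% the reverse, against 10 and 2 of 44 members. Below the controls at day 7 and above them in the adult were Gstm7 (day 7 log2 fold change -1.25, adult 1.75), Gstm2 (-1.20 and 3.82), Gstm6 (-1.13 and 1.83), Gstm1 (-0.97 and 4.22), Gsta4 (-0.74 and 2.78) and Prdx2 (-0.53 and 2.11). The same held for Txnrd2 (-0.32 and 2.33), Sod3 (-0.22 and 2.43), Txndc15 (-0.21 and 1.99) and Gpx3 (-0.13 and 4.08). Leaving out 1 day 7 sample moved some of these, Txnrd2 to -0.18 without KO replicate 1 and -0.46 without KO replicate 2 (adjusted p = 0.0282, edgeR), Gpx3 to -0.085 without KO replicate 1, and Txndc15 to -0.13 without control replicate 1. Above the controls at day 7 and below them in the adult were Prdx4 (0.066 and -1.76) and Sod2 (0.17 and -0.83), both on scaled counts, where the adult FPKM ranges overlapped. On FPKM the day 7 groups of Prdx4 overlapped too. Single day 7 omissions gave 0.037 to 0.094 for Prdx4 and 0.074 to 0.26 for Sod2. With all samples no day 7 value among these passed the test with edgeR. The samples also differ in kind, cultured cells in the first case and whole testis in the second, so age and kind of sample cannot be told apart.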

How the results depend on the processing

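The adult counts of members were 31 higher and 12 lower with median-ratio scaling, with no filter on low values, with a mean FPKM of at least 1 and with DESeq2, and 37 higher and 9 or 10 lower with total-count scaling and limma. Of all genes 34.7% to 41.1% were higher and 35.8% to 44.2% lower in the first 4 of these fits, and 53.3% to 54.1% and 30% to 31.2% in the others. Leaving out 1 replicate gave 31 to 33 higher and 11 to 12 lower, beside 37.5% to 45.3% and 37.6% to 41.1% of all genes, with Sod2 not called without KO replicate 3. Pathway genes lower in the adult numbered 15 with total-count scaling, 14 and 15 with limma on log2(FPKM + 0.1) and log2(FPKM + 1), and 14 at a log2 fold change over 1 with adjusted p under 0.001, against 24. The shares of all genes given here are for an adjusted p under 0.05, so the count at the stricter threshold has no share beside it. At day 7, DESeq2 called 4 members higher, and 4 pathway genes higher and 1 lower. Leaving out each day 7 replicate in turn gave 0 to 11 members higher and 0 to 10 lower, 0 to 19 pathway genes higher and 0 to 12 lower, and 33 to 42 members not overlapping. Without KO replicate 1 these were 7 and 9 members, beside 9.77% and 11.7% of all genes, and without KO replicate 2 they were 11 and 10 members, beside 21.1% and 18.9% of all genes. With fewer samples the groups of 64.8% to 87.8% of all genes did not overlap. The lone sample is assumed to vary like the other group.

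Among the genes named with values, signs turned for genes near 0 and for adult Sod2 and Gclm, which were called lower. With total-count scaling, limma on log2(FPKM + 0.1) and limma on log2(FPKM + 1), the adult values were 0.62, 0.56 and 0.54 for Gstt2, 0.79, 0.78 and 0.75 for Gstt3, 0.027, 0.027 and 0.026 for Sod2 and 0.12, 0.10 and 0.099 for Gclm, and the day 7 values of Txnrd1 were -0.017, -0.027 and -0.027. With median-ratio scaling and DESeq2 the adult values were -0.015 and -0.016 for Prdx5, -0.048 and -0.048 for Txndc12, -0.14 and -0.14 for Txndc16 and -0.075 and -0.075 for Rnf20. Leaving out single replicates gave -0.15 to 0.00057 for Gpx4, -0.11 to 0.095 for Sod1, -0.39 to 0.033 for Gstm4 and -0.17 to 0.19 for Txnrd1 at day 7, and -0.28 to 0.028 for Gstt2 and -0.10 to 0.077 for Gstt3 in the adult.

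Samples with the same replicate number did not deviate together (correlation of deviations 0.04 at day 7 and 0.01 to 0.02 in the adult, where each sample correlated best with its own number). With a replicate block the adult members were 31 higher and 12 lower and the pathway genes 46 higher and 23 lower, beside 38.1% and 38.6% of all genes, and 0 members passed at day 7.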
